A study of Mus musculus with 23 samples.

Results

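Cycloheximide was given together with T3 to cultured mouse astrocytes, and these cultures were set against cultures given T3 alone, both harvested 6 h after T3. The comparison holds 8 of the 23 libraries of the series, chosen by their titles, with 4 libraries of CHX + T3 (CHX is the labels' name for cycloheximide) and 4 of T3. The cells were primary astrocytes from the neocortex of mice at postnatal day 3, of a hybrid background joining 129/OLa+129/Sv+ with BALB/c+C57BL/6, grown for 7 days and stated to be more than 95% astrocytes. All cultures, controls included, had spent 24 h in medium with 0.1% serum stripped of thyroid hormone. T3 (triiodothyronine, the active thyroid hormone) was used at 10 nM, and cycloheximide at 8 µg/ml, given 30 min ahead of T3. Beside these groups, 4 libraries of CHX alone and 4 untreated controls of 6 h gave the effect of cycloheximide without T3. The labels do not say whether replicates came from separate animals or cultures, so p-values reflect only how far these libraries lie apart, and that spread may be technical.

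Cycloheximide stops elongation on cytosolic ribosomes, so proteins with short lives are lost while transcription goes on. It is known for raising the mRNAs of many early response genes, because labile repressors such as IκBα vanish and because the decay of many short-lived mRNAs depends on their being translated. In work on nuclear receptors it is used to ask which responses to a hormone need newly made protein. Here the question is the reverse one, what the block of protein synthesis did to the RNAs of astrocytes that were under T3.

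The CHX + T3 libraries lay on sequencing lane 6 and the T3 libraries on lane 5, so lane and treatment cannot be told apart in this comparison. Of the CHX libraries without T3, replicates 1 to 3 shared lane 5 with the controls, and their values on that lane alone are given beside several of the main results. Counts assigned to genes came to 15068204 to 19604098 per CHX + T3 library and 17616354 to 20493855 per T3 library. Alignments set aside as not unique made up 30.7 to 32.8% of all entries counted in CHX + T3 libraries and 36.2 to 39.6% in T3 libraries. This need not equal a share of reads, and the part of this difference in the results was not tested. The astrocyte markers Gfap, Aqp4, Aldh1l1, Slc1a3, Gja1 and Sox9 were present in all 8 libraries, none below 443.8 CPM in CHX + T3 libraries or 434.9 CPM in T3 libraries (CPM, a gene's counts per library size, scaled by the trimmed mean of M values). In a principal component analysis of all 23 libraries, the first component took 52.9% of the variance. Every library with cycloheximide scored between 59.4 and 65.2 on it, and every library without cycloheximide between -49.4 and -22.6.

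Cycloheximide in the presence of T3 changed most of the measured transcriptome. Of 16087 genes tested, 10830 (67.3%) passed an adjusted p of 0.05 in edgeR's quasi-likelihood test, 5845 (36.3%) higher in CHX + T3 and 4985 (31.0%) lower. These genes are called in what follows, and "rose" and "fell" are used of called genes only. The shares of 36.3% and 31.0% are the background for each count of list members that rose or fell. At least 2-fold changes were called in 2658 genes (16.5%), of which 1682 (10.5%) rose and 976 (6.07%) fell. The upward side reached further, with 308 genes rising and 116 falling at least 4-fold, and 84 rising and 18 falling at least 8-fold. The 4 CHX + T3 values and the 4 T3 values did not overlap in 10228 genes (63.6%). The median log2 fold change over all genes tested was 0.04. The values are shares of each library's RNA, so a lower value of a cell type's genes cannot tell fewer cells of that type from less RNA per cell, and a change of total RNA per cell does not show.

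**Figure D1:**
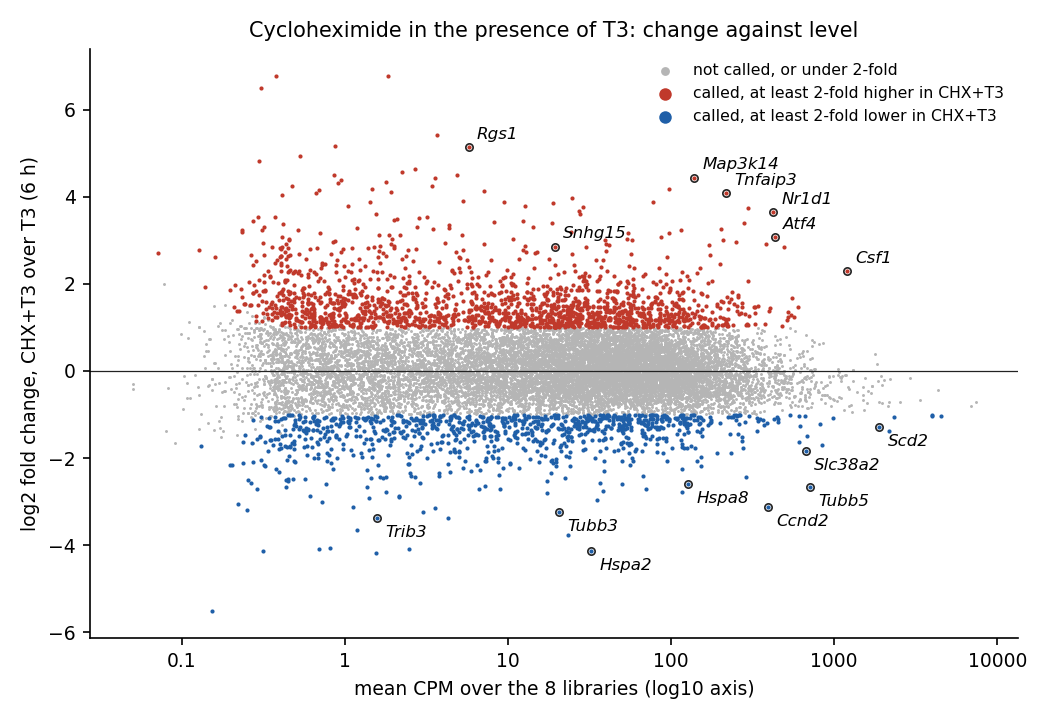
Each point is 1 of the 16087 genes tested, with its mean CPM over the 8 libraries on a log10 axis against the log2 fold change of CHX + T3 over T3. Red points are the 1682 genes called at least 2-fold higher in CHX + T3 libraries, blue points the 976 called at least 2-fold lower, and grey points the rest; the named genes include Map3k14, Tnfaip3 and Nr1d1 above and Hspa2, Ccnd2 and Tubb5 below.

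Among protein-coding genes the largest rises were mostly in genes with few counts under T3 alone. Of the 15 coding genes with the largest rise 11 had a mean under 10 CPM, and their log2 fold changes, Nkx1-2 aside, were 3.96 to 5.14. Nkx1-2, a homeobox gene, had 3.72, 3.75, 3.57 and 3.66 CPM in CHX + T3 libraries, against 0, 0.108, 0 and 0 CPM in T3 libraries, so that no fold is given for it. Rgs1, which speeds the shut-off of G protein signals, had 12.1, 9.43, 10.2 and 13.1 CPM in CHX + T3 libraries, against 0.359, 0.379, 0.177 and 0.313 CPM in T3 libraries. Its groups stood far apart, with a fitted log2 change of 5.14 ± 0.23 (± SE, adjusted p = 8.46e-16). Vipr1, a receptor for vasoactive intestinal peptide, rose by 4.56 ± 0.37 (log2 ± SE), and Tnfsf18, the ligand of the receptor GITR, by 4.42 ± 0.22. Others of the 15 were the linker histone gene Hist1h1b (4.51 ± 0.26), the transcription factor gene Gata6 (4.35 ± 0.31), the ubiquitin ligase gene Neurl3 (4.25 ± 0.25), the corepressor gene Skor1 (4.11 ± 0.28) and Tmem200b (4.12 ± 0.20). The 4 with a mean above 10 CPM, Map3k14, Tnfaip3, Atf3 and Egr2, and the cytokine genes Ccl20 and Osm belong to the groups described next.

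Genes of the NF-κB pathway rose together. In resting cells NF-κB dimers are held in the cytoplasm by IκB proteins, and active NF-κB drives the genes of its own inhibitors, which end the response. Of 24 such feedback and target genes tested, 21 rose and 2 fell, 14 of them rose at least 2-fold, and the median log2 fold change was 1.36, against 0.04 over all genes. Under CHX alone on lane 5 alone, 21 rose and 2 fell with a median of 1.52. Upstream in the pathway, Map3k14, the NF-κB-inducing kinase, had 262, 271, 259.7 and 266 CPM in CHX + T3 libraries, against 12.6, 12.1, 12.2 and 11.8 CPM in T3 libraries. Within each group the replicates were close, and the log2 change of 4.44 ± 0.08 (± SE, adjusted p = 4.24e-23) was the largest of any gene in the list of 15 with a mean above 10 CPM. CHX alone on lane 5 gave 4.58 ± 0.07. Tnfaip3, which encodes A20, the ubiquitin-editing inhibitor of the pathway, had 397, 408, 439 and 401 CPM in CHX + T3 libraries, against 24.3, 21.3, 23.8 and 27.4 CPM in T3 libraries. The replicates of each group again lay close together, and it rose by 4.09 ± 0.09 (log2 ± SE; adjusted p = 1.92e-21).

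The inhibitors themselves and partner subunits rose less steeply. Nfkbie, which encodes IκBε, had 171, 178, 169 and 179 CPM in CHX + T3 libraries, against 19.7, 19.2, 17.1 and 21.4 CPM in T3 libraries, a log2 fold change of 3.17 ± 0.09 (SE). Nfkbia, which encodes IκBα, had 366, 387, 344 and 383 CPM in CHX + T3 libraries, against 104, 107, 99.2 and 109.6 CPM in T3 libraries, and rose by 1.82 ± 0.08. The subunit gene Relb rose by 2.27 ± 0.07, and Irf1, a transcription factor gene under NF-κB and STAT control, rose by 3.39 ± 0.07 to 501, 522, 499 and 511 CPM in CHX + T3 libraries, against 49.4, 51.3, 43.5 and 50.1 CPM in T3 libraries.

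Chemokine and cytokine genes were the second group with a median of 1.36. Of 18 tested members 14 rose and 2 fell, and 7 of the list of 25 were too low to test, Il6 and Il1b among them. Cxcl1, which draws neutrophils, had 146, 144, 139.8 and 154 CPM in CHX + T3 libraries, against 9.02, 10.95, 8.62 and 11.3 CPM in T3 libraries. All CHX + T3 values lay more than 10 times above all T3 values, and the log2 fold change was 3.87 ± 0.12 (SE; adjusted p = 7.73e-19). Ccl2, which draws monocytes, had 161, 156, 149 and 158 CPM in CHX + T3 libraries, against 19.1, 18.6, 15.3 and 21.4 CPM in T3 libraries. Csf1, the growth factor of macrophages and microglia, had 1922, 1905, 2126 and 1967 CPM in CHX + T3 libraries, against 416, 406, 386 and 409 CPM in T3 libraries. Tnf rose by 2.71 ± 0.16, with 25.4, 26.4, 25.2 and 24.3 CPM in CHX + T3 libraries, against 3.59, 4.93, 2.89 and 3.97 CPM in T3 libraries. The low genes Ccl20, a chemokine, and Osm, a cytokine of the interleukin 6 family, rose by 4.64 ± 0.32 and 4.17 ± 0.30.

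Promoters of 3 of these genes are shown because they hold a match to the NF-κB consensus, which not all members do. They are the 300 bases around the RefSeq start (250 before, 50 after) in build GRCm38.p6, in the direction of the gene, with matches to the NF-κB consensus on either strand in capitals. They lie at chr10:19015361-19015660 on the minus strand (Tnfaip3), chr5:90890995-90891294 on the plus strand (Cxcl1) and chr17:45555450-45555749 on the plus strand (Nfkbie).
Tnfaip3: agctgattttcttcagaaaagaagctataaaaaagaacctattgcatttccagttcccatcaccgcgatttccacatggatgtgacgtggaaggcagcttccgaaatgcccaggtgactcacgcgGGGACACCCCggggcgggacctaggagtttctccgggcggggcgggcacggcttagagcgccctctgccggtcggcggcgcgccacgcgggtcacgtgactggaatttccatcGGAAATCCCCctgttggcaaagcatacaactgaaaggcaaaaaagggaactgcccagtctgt
Cxcl1: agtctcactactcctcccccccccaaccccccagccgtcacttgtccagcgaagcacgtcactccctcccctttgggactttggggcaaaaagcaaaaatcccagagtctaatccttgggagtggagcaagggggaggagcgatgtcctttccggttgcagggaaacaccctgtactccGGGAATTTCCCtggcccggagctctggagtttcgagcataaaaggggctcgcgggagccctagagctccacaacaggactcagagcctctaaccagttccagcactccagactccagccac
Nfkbie: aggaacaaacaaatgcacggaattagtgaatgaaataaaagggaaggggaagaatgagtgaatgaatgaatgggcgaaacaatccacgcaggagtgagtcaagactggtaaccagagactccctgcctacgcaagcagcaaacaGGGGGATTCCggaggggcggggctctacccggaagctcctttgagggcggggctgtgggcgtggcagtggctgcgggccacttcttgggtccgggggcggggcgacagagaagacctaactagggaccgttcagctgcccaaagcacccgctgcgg
Of the 24 NF-κB genes tested, 20 had a promoter in the RefSeq table, and 13 of their 27 promoters (48.15%) held a match. Of all 32851 promoters in the table, 4.505% held one. The list was made up of known NF-κB feedback and target genes, so a high share was to some degree fixed in advance. A match is a string of letters in the window and not a measured binding site. Whether the site had a part in the rise was not tested. The same share over all genes that rose is not given, because only 211 of the 308 genes that rose at least 4-fold had a promoter in the table.

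Immediate early genes rose as well, though not all of them. These genes answer growth factors and stress within minutes, with no need of new protein, and their mRNAs and proteins are short-lived. Of 42 members 29 rose and 6 fell, 20 rose at least 2-fold, and the median log2 fold change was 0.80, with 25 rising and 6 falling under CHX alone on lane 5. Atf3, a stress-induced bZIP factor gene, had 186, 159, 179 and 209.8 CPM in CHX + T3 libraries, against 9.38, 11.1, 8.98 and 10.96 CPM in T3 libraries. Egr2, a zinc-finger factor gene, rose by 3.96 ± 0.14, Gadd45b, a stress sensor gene, by 3.74 ± 0.09, and Klf10, a TGF-β-induced repressor gene, by 3.01 ± 0.06 (log2 ± SE). The AP-1 genes rose in unequal measure, Junb by 2.66 ± 0.13, Fos by 2.06 ± 0.12 and Jun by 1.38 ± 0.07. Fos had 136, 125, 145 and 147 CPM in CHX + T3 libraries, against 38.7, 31, 31.2 and 31.3 CPM in T3 libraries. Myc, a growth regulator gene, rose by 1.28 ± 0.13. Opposite to these stood the matrix protein genes Ccn1 and Ccn2, both known targets of YAP and SRF. Ccn2 fell to 299, 283, 299 and 308 CPM in CHX + T3 libraries, against 886, 972, 903 and 897 CPM in T3 libraries, and Ccn1 changed by -1.20 ± 0.10 on the log2 scale.

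Feedback genes of kinase and cytokine signalling were more mixed. Of 10 SOCS and cytokine feedback genes 6 rose and 2 fell. Socs2, an inhibitor of growth hormone and STAT5 signalling, rose by 2.84 ± 0.13, and Pim1, a STAT-induced kinase gene, by 1.82 ± 0.06. Of 18 DUSP, Sprouty and Spred inhibitors of the MAP kinase pathway, 8 rose and 3 fell, with a median of 0.13. Zfp36, which encodes the protein that binds AU-rich elements and starts decay, rose by 1.10 ± 0.09. Ptgs2, the early response gene of cyclooxygenase 2, had 71.1, 70.9, 78.5 and 71.8 CPM in CHX + T3 libraries, against 11.5, 9.81, 7.97 and 9.97 CPM in T3 libraries.

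AU-rich elements in the 3′ untranslated region mark mRNAs for fast decay, and their core is often written TATTTAT in DNA letters. The windows shown come from 4 genes that rose, and are shown because they hold overlapping or clustered copies of this core, in capitals. They are 30 bases each in the direction of the gene, from GENCODE M21 transcripts on GRCm38, at chr11:4240945-4240974, plus strand (Osm), chr5:90892607-90892636, plus strand (Cxcl1), chr1:150105790-150105819, plus strand (Ptgs2) and chr7:45522950-45522979, minus strand (Ppp1r15a).
Osm: ttttaTATTTATaaggccTATTTATaatgt
Cxcl1: tccTATTTATTTATgTATTTATTTATtcca
Ptgs2: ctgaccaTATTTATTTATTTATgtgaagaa
Ppp1r15a: cctatTATTTATTTATTTATTTATttgaat
The core was in the 3′ untranslated region of 93 of 234 coding genes that rose at least 4-fold (39.74%) and of 394 of 1134 that rose 2-fold to under 4-fold (34.74%). It was in 217 of 775 that fell 2-fold to under 4-fold (28%), in 30 of 100 that fell at least 4-fold (30%), and in 4215 of all 13841 coding genes with such a region (30.45%). The median length of the region was 1050 bases in the steepest risers and 1179 bases over all genes. By list, the core was in 13 of 18 chemokine and cytokine genes, in 7 of 10 SOCS and cytokine feedback genes, in 22 of 42 immediate early genes, and in 2 of 56 cytosolic ribosomal protein genes. Its share did not go with the direction of a list throughout. It was in 12 of 19 BMP, TGF-β and Id genes, 22 of 38 axon guidance genes, 7 of 12 neuron markers and 10 of 19 Notch pathway genes, lists that did not lean upward. It was in 8 of 27 SR and related splicing factors and 2 of 16 nonsense-mediated decay factors, where most members rose.

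**Figure D2:**
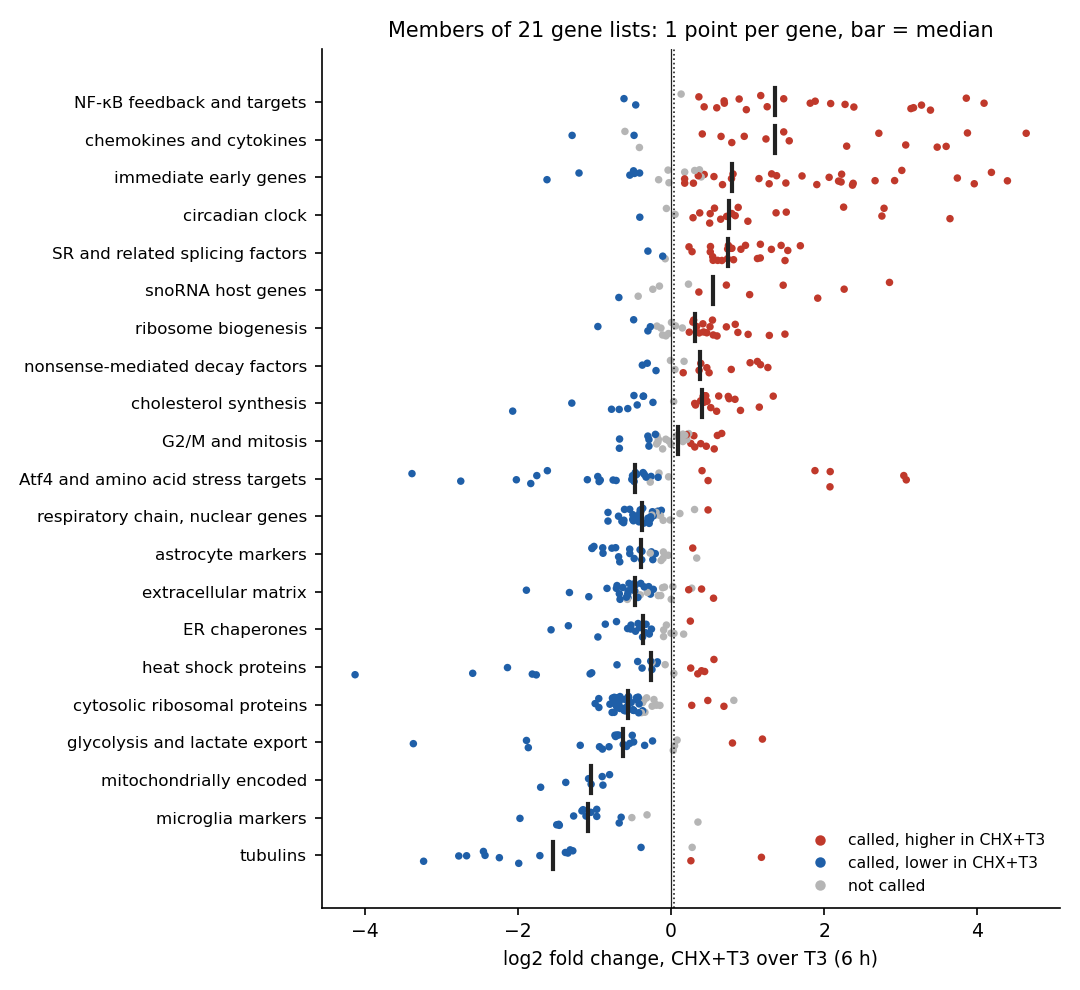
Each point is 1 gene of 21 lists, placed by its log2 fold change of CHX + T3 over T3, red where called higher, blue where called lower and grey where not called; the black bar is the list's median and the dotted line the median of all genes tested, 0.04. The NF-κB and chemokine lists lie furthest to the right and the tubulins, the microglia markers and the mitochondrially encoded genes furthest to the left.

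The circadian clock genes rose almost as a body. The clock is a loop in which BMAL1 and CLOCK drive the Per, Cry and Rev-erb genes, whose short-lived proteins then repress it. Of 20 members 17 rose and 1 fell, 7 rose at least 2-fold, and the median log2 fold change was 0.76. Nr1d1, which encodes the repressor REV-ERBα, had 779, 791, 814 and 753 CPM in CHX + T3 libraries, against 66.2, 59.2, 62.97 and 62.8 CPM in T3 libraries. With its log2 change of 3.64 ± 0.05 (± SE, adjusted p = 8.12e-25) it stood clear of all T3 values, and CHX alone on lane 5 gave 3.58 ± 0.05. The library kit does not mark strand and Nr1d1 overlaps the thyroid hormone receptor gene Thra on the other strand, so part of its reads could be Thra reads. Thra itself went the other way, with 207, 197, 186 and 200.2 CPM in CHX + T3 libraries, against 353, 377, 374 and 350 CPM in T3 libraries. Per1, a repressor of the loop, rose by 2.25 ± 0.06, Hlf, a clock output factor gene, by 2.75 ± 0.10, and Ciart, a further repressor gene, by 2.78 ± 0.10.

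RNA-processing genes also lay on the upper side. Of 27 SR and related splicing factors, which pick splice sites and whose own mRNAs carry exons that send them to nonsense-mediated decay, 24 rose and 2 fell, with a median of 0.75. Srsf3 had 218, 210.2, 221 and 216 CPM in CHX + T3 libraries, against 70.7, 73.7, 81.04 and 75.5 CPM in T3 libraries, a log2 fold change of 1.52 ± 0.05 (SE). Tra2a rose by 1.69 ± 0.07 and Tra2b by 1.44 ± 0.06. Host genes of small nucleolar RNAs are spliced noncoding RNAs that are translated in short frames and then degraded by the same decay pathway. Of 12 tested 7 rose and 1 fell, and 11 of the list were not tested. Snhg15 had 36.8, 32.7, 31.4 and 35.4 CPM in CHX + T3 libraries, against 4.36, 4.72, 4.37 and 5.37 CPM in T3 libraries, and Snhg17 rose by 2.26 ± 0.14. Of 16 nonsense-mediated decay factors 10 rose and 3 fell, with a median of 0.38.

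By gene class, rises of at least 2-fold were called in 24.8% of 246 lincRNAs, 24.75% of 202 processed transcripts and 22.82% of 333 antisense genes, against 9.966% of 13918 protein-coding genes, and falls of at least 2-fold took 5.285, 3.96, 4.204 and 6.351% of these classes. The 974 processed pseudogenes, the largest noncoding class, had such rises in 3.183% and such falls in 2.977%, with a median log2 fold change of -0.20. Of genes that are not protein-coding, the steepest rise with more than 10 CPM was that of Gm16973, with 49.9, 48.2, 56.3 and 48.6 CPM in CHX + T3 libraries, against 3.95, 2.93, 4.73 and 4.33 CPM in T3 libraries. It overlaps Mphosph8, and without strand, reads from the stretch that both genes share cannot be told apart. Gm16565 (3.25 ± 0.21) overlaps Cd247, while H2-K2 (5.42 ± 0.35), a pseudogene of the major histocompatibility complex and so open to reads of its relatives, 2610307P16Rik (3.88 ± 0.16) and Gm12240 (3.80 ± 0.43) completed the 5 steepest. The 5 steepest falls were those of 1700071M16Rik (-4.17 ± 0.51), the tubulin pseudogene Tubb4b-ps1 (-2.79 ± 0.08), D030047H15Rik (-2.46 ± 0.41), the mitochondrial leucine tRNA mt-Tl1 (-2.38 ± 0.12) and the pseudogene Ak3l2-ps (-2.34 ± 0.22). With lane as a term in the fit, 1700071M16Rik (-3.07, adjusted p = 0.443) and D030047H15Rik (-0.43, adjusted p = 0.866) were not called.

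Atf4 mRNA rose and most of its known target genes fell. ATF4 is a transcription factor of the integrated stress response whose mRNA is always present and whose protein is made when amino acids are short, and its targets supply amino acids and their transporters. Atf4 had 775, 749.8, 741 and 818 CPM in CHX + T3 libraries, against 91.4, 102, 81.3 and 92.2 CPM in T3 libraries. That is a log2 change of 3.07 ± 0.07 (± SE, adjusted p = 1.34e-21), with 3.11 ± 0.07 for CHX alone on lane 5. Ddit3, the gene of the factor CHOP, rose by 3.04 ± 0.10, though it overlaps Mars on the other strand, and Ppp1r15a, the gene of GADD34, which ends the response, rose by 2.08 ± 0.06. Of 33 genes in the ATF4 and amino acid stress list 7 rose, these 3 genes among them, and 23 fell, with a median of -0.46. Slc38a2, a carrier of neutral amino acids, had 280, 285, 319.6 and 294 CPM in CHX + T3 libraries, against 1124, 956, 1038 and 1080 CPM in T3 libraries. Slc7a11, the cystine carrier, had 8.10, 11.01, 11.6 and 8.79 CPM in CHX + T3 libraries, against 77, 50.8, 64.2 and 73.7 CPM in T3 libraries. Both groups kept apart in each gene, with log2 fold changes of -1.83 ± 0.07 and -2.75 ± 0.19. Trib3, a pseudokinase gene driven by ATF4 and CHOP, was among the 15 steepest falls of coding genes at -3.38 ± 0.27. The tRNA synthetases split evenly, with 10 up and 10 down of 23.

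Chaperone genes of the cytosol and of the ER fell more often than they rose. Of 22 heat shock genes 14 fell and 5 rose, and 7 fell at least 2-fold while none rose that far. Hspa2, an HSP70 gene best known from the testis, had 3.59, 4.04, 3.35 and 3.05 CPM in CHX + T3 libraries, against 57.9, 64.7, 62.7 and 59.1 CPM in T3 libraries. It showed the steepest fall of the 15 lowest coding genes, at -4.13 ± 0.11 (SE; adjusted p = 7.80e-20), and -3.59 ± 0.12 for CHX alone on lane 5. Hspa8, the constitutive HSC70 gene, had 37.9, 36.02, 31.7 and 39.99 CPM in CHX + T3 libraries, against 197, 231, 227 and 221 CPM in T3 libraries, with the caution that it has processed pseudogenes that share its reads. Dnajb1, a partner of HSP70, fell by 1.76 on the log2 scale, and Hsph1, a nucleotide exchange factor gene, rose by 0.40 ± 0.05. With lane as a term, 8 heat shock genes fell. Of 23 ER chaperone and unfolded protein response genes 16 fell and 1 rose. Xbp1, the transcription factor gene of that response, had 7.38, 8.73, 8.81 and 8.995 CPM in CHX + T3 libraries, against 23.6, 27.2, 25.1 and 24.9 CPM in T3 libraries.

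Tubulin genes fell as a family, a list put together after the data had been seen. Tubulin mRNAs are known to be degraded while they are translated, through the first residues of the growing α and β chains, when free tubulin is plentiful. Of 16 tubulin genes 13 fell and 2 rose, 12 fell at least 2-fold, and the median log2 fold change was -1.55, with 13 falling and 1 rising, and a median of -1.94, under CHX alone on lane 5. Tubb5, a β-tubulin gene, had 195, 205, 175 and 202 CPM in CHX + T3 libraries, against 1189, 1293, 1232 and 1230 CPM in T3 libraries. Its log2 fold change was -2.67 ± 0.08 (SE; adjusted p = 3.40e-19). Tubb2b had 95.6, 87.4, 80.2 and 96.4 CPM in CHX + T3 libraries, against 453, 522, 488 and 474 CPM in T3 libraries. Tubb3, better known from neurons, had 5.55, 3.75, 3.08 and 3.51 CPM in CHX + T3 libraries, against 35.02, 38.2, 36.7 and 37.7 CPM in T3 libraries. Tubb4b changed by -2.77 ± 0.09, Tubb2a by -2.24 ± 0.12 and the α-tubulin gene Tuba1a by -1.38 ± 0.10. Closely related copies such as Tubb4b-ps1 may share some of these reads.

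The γ-tubulin genes, which seed microtubules at the centrosome, stood apart from this, as did the ε-tubulin gene Tube1 and the δ-tubulin gene Tubd1. The log2 fold changes of Tube1 and Tubd1 were 0.28 and 0.26. Tubg1 had 29.2, 32.3, 27.4 and 33.2 CPM in CHX + T3 libraries, against 36.7, 42.3, 39.99 and 41.2 CPM in T3 libraries, and fell by 0.39 on the log2 scale. Tubg2 had 0.849, 1.41, 1.30 and 2.03 CPM in CHX + T3 libraries, against 0.615, 0.921, 0.532 and 0.417 CPM in T3 libraries, and rose by 1.18 ± 0.32, with groups that overlapped. Neither γ-tubulin gene was called with lane as a term (adjusted p = 0.260 and 0.137). The residues read in the known decay of tubulin mRNAs are coded at the start of the coding sequence. The first 30 coding bases of 4 β-tubulins and 1 γ-tubulin are therefore shown, with the first 12 bases in capitals. They are in the direction of the gene, from GENCODE M21 on GRCm38, at chr8:123411606-123411635, plus strand (Tubb3), chr2:25224561-25224590, minus strand (Tubb4b), chr17:35838024-35838053, minus strand (Tubb5), chr13:34077900-34077929, minus strand (Tubb2a) and chr11:101120194-101120223, plus strand (Tubg1).
Tubb3: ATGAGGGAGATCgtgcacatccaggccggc
Tubb4b: ATGAGGGAGATCgtgcacctgcaggctggg
Tubb5: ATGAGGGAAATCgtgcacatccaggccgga
Tubb2a: ATGCGCGAGATCgtgcacatccaggcgggc
Tubg1: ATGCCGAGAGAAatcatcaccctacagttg
The first 12 bases were the same in Tubb3 and Tubb4b, and those of Tubb5, Tubb2a and Tubg1 were each found in no other of the 16 genes. Read as codons, they give the same residues in all 4 β-tubulins shown, methionine, arginine, glutamate and isoleucine. In Tubg1 they give methionine, proline, arginine and glutamate. Whether the known decay had a part in the falls was not tested.

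**Figure D3:**
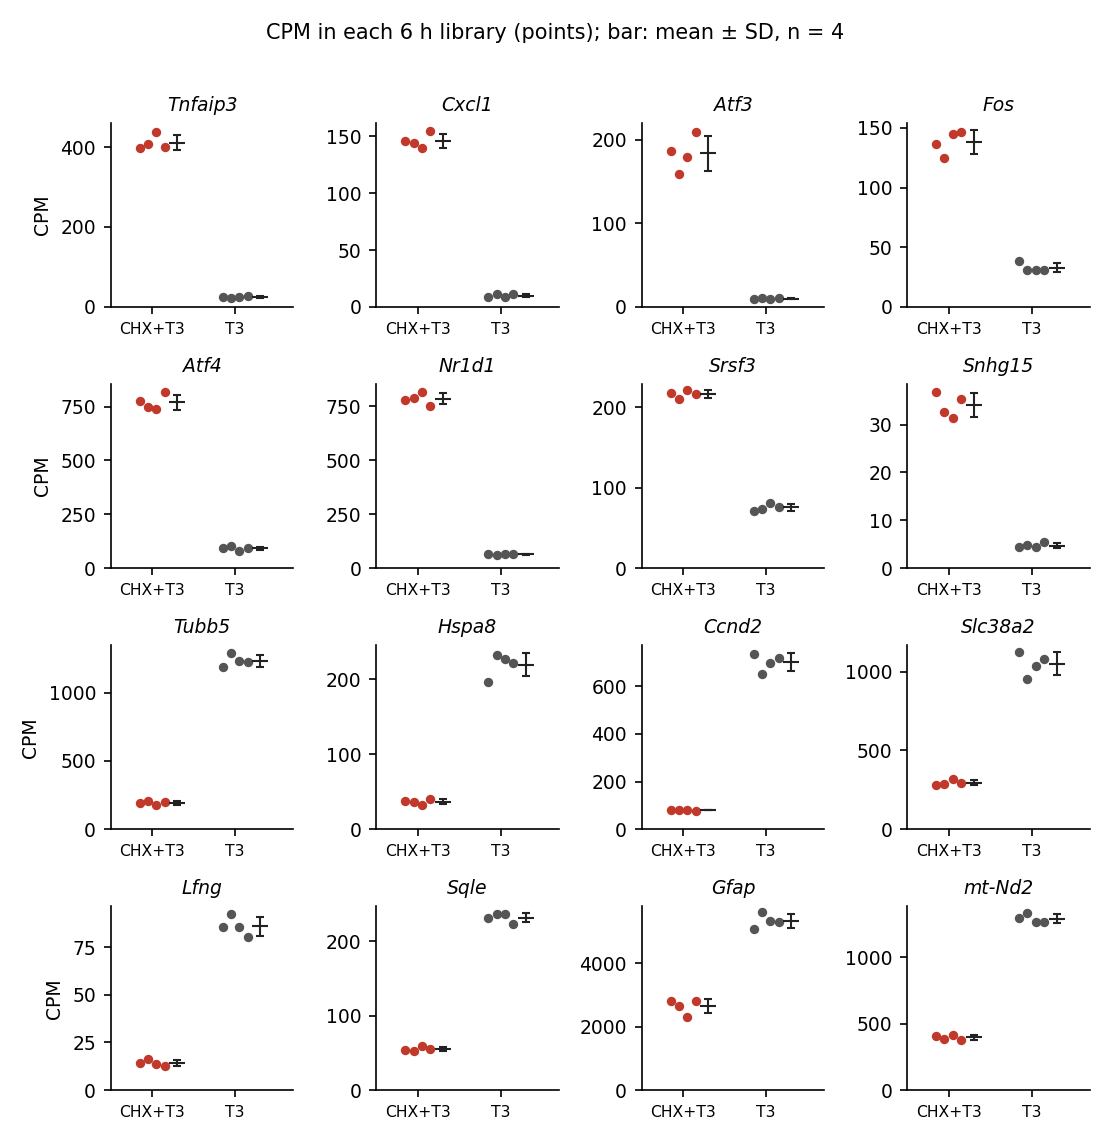
CPM of 16 genes in each of the 4 CHX + T3 libraries (red, left in each panel) and the 4 T3 libraries (grey, right), with the mean ± SD of each group (n = 4). The groups are apart in all 16 panels, higher in CHX + T3 libraries from Tnfaip3 to Snhg15 in the upper panels and lower from Tubb5 to mt-Nd2 in the lower ones.

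Of the D-type cyclin genes, which carry growth signals to the cell cycle, Ccnd2 and Ccnd1 both fell. Ccnd2 had 81.9, 81.1, 80.4 and 77.9 CPM in CHX + T3 libraries, against 738, 652, 698 and 721 CPM in T3 libraries. The T3 values spread more widely than the CHX + T3 values, yet the nearest libraries were about 8 times apart, and the log2 fold change was -3.13 ± 0.09 (SE; adjusted p = 7.73e-19). Ccnd2 overlaps the antisense gene 9330179D12Rik. Ccnd1 changed by -1.77 ± 0.09, while Cdk6, a kinase partner of the D cyclins, rose by 1.60 ± 0.20. Of 32 G1/S and DNA replication genes 12 rose and 11 fell, or 5 and 12 under CHX alone on lane 5. Mcm10, a replication factor gene, rose by 1.33 ± 0.11. Over all genes tested 36.3% rose and 31.0% fell. Of 30 G2/M and mitosis genes 9 rose and 6 fell, none of them 2-fold. With lane as a term 19 of the G2/M genes rose and none fell, and in a fit of the 8 libraries alone 10 rose and 11 fell. The lane term rests on 6 h CHX replicate 4, which lay below the other CHX libraries without T3 in all 30 of these genes.

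Notch and BMP genes moved in both directions. Notch signalling keeps neighbouring cells in step through the Hes and Hey repressor genes, and BMP signalling acts through SMAD proteins on the Id genes. Of 19 Notch pathway genes 7 fell and 5 rose, where 31.0% of all genes tested fell and 36.3% rose. Hes5, a Notch target, was among the 15 steepest falls at -2.90 ± 0.32, although it was low, with 0.261, 0.351, 0.270 and 0.407 CPM in CHX + T3 libraries, against 2.87, 2.93, 2.13 and 1.98 CPM in T3 libraries. Lfng, a glycosyltransferase that tunes Notch receptors, had 14.04, 16.3, 13.6 and 12.8 CPM in CHX + T3 libraries, against 85.7, 92.4, 85.7 and 80.1 CPM in T3 libraries. The ligand gene Dll4 rose by 1.45 ± 0.16. Of 19 BMP, TGF-β and Id genes 9 rose and 9 fell. The ligand gene Bmp4 had 51.97, 57.6, 56.7 and 49.6 CPM in CHX + T3 libraries, against 3.59, 4.01, 3.72 and 4.59 CPM in T3 libraries, and the target gene Id1 had 8.62, 9.25, 8.05 and 11.03 CPM in CHX + T3 libraries, against 36.5, 40.4, 35.6 and 31.8 CPM in T3 libraries. Grem1, which encodes a secreted BMP antagonist, fell by 2.90 on the log2 scale, and was not called with lane as a term (adjusted p = 0.0762).

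The rest of the 15 steepest falls in coding genes had little in common by name. Layn, a hyaluronan receptor gene, had 3.20, 3.51, 2.54 and 3.46 CPM in CHX + T3 libraries, against 37.4, 42.2, 43.6 and 50.5 CPM in T3 libraries. Mgat5, a Golgi enzyme gene for branched N-glycans, changed by -2.97 ± 0.19 and overlaps Tmem163. Slc16a3, the lactate exporter MCT4, changed by -3.37 ± 0.28, Fpr1, a formyl peptide receptor of myeloid cells, by -2.88 ± 0.27, and Lzts1, a tumour suppressor gene, by -4.09 ± 0.30. Zfp773 (-3.64 ± 0.35), Lrrc10b (-3.15 ± 0.25) and the hypoxia-induced gene Ankrd37 (-3.12 ± 0.38) were low throughout. Gpr17, a receptor of oligodendrocyte precursors, had 0.457, 0.410, 0.973 and 0.457 CPM in CHX + T3 libraries, against 7.23, 3.85, 3.78 and 7.10 CPM in T3 libraries. Its T3 values spread widely, and its log2 fold change was -3.24 ± 1.01 (SE; adjusted p = 0.00661). CHX alone on lane 5 gave -1.172 ± 1.105, which was not called (adjusted p = 0.363).

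In most lists of housekeeping metabolism called falls outnumbered called rises. Of 23 glycolysis and lactate export genes 18 fell and 2 rose, 4 fell at least 2-fold, and Slc2a1, the glucose carrier GLUT1, had 102, 98.1, 94.9 and 99.3 CPM in CHX + T3 libraries, against 348, 359.9, 365 and 387 CPM in T3 libraries. Of 56 cytosolic ribosomal protein genes 42 fell and 3 rose, with a median of -0.56 and no change of 2-fold, and Rplp0 had 234, 227, 189 and 239.9 CPM in CHX + T3 libraries, against 319, 405, 362 and 329.6 CPM in T3 libraries. These genes have many processed pseudogenes, so their counts are uncertain. By contrast 18 of 30 ribosome biogenesis genes rose and 4 fell. Of 38 nuclear genes of the respiratory chain 29 fell and 1 rose, with a median of -0.38. With lane as a term, 23 ribosomal protein genes and 7 respiratory chain genes fell.

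The genes encoded in mitochondrial DNA, which are translated by mitochondrial ribosomes that cycloheximide does not block, fell further. All 7 tested fell, with a median of -1.04, and the summed level of the 13 in the list was 10760 to 11570 CPM in CHX + T3 libraries, against 22200 to 22970 CPM in T3 libraries. The summed values of the groups did not overlap. The other 6, mt-Atp6, mt-Atp8, mt-Co2, mt-Co3, mt-Nd3 and mt-Nd4l, had too few counts to test. The sum is therefore not a full measure of mitochondrial RNA, and the part of reads that were not uniquely placed was not tested. Of the 7, mt-Nd2 had 405, 388, 414 and 380.4 CPM in CHX + T3 libraries, against 1295, 1337, 1266 and 1271 CPM in T3 libraries, and mt-Co1 had 5012, 5021, 5102 and 4905 CPM in CHX + T3 libraries, against 8943, 8664, 8727 and 8635 CPM in T3 libraries.

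Lipid synthesis split by pathway. Of 28 cholesterol synthesis genes and SREBP targets 17 rose and 10 fell, with a median of 0.40. Sqle, the squalene epoxidase gene, had 54.1, 52.8, 58.8 and 55.6 CPM in CHX + T3 libraries, against 231, 236, 236 and 224 CPM in T3 libraries, which set it against the median of its list. Of 18 fatty acid synthesis genes 10 fell and 2 rose, and Scd2, a desaturase gene, changed by -1.29 ± 0.06 to 1058, 1074, 1187 and 1084 CPM in CHX + T3 libraries, against 2912, 2403, 2751 and 2667 CPM in T3 libraries. Of 38 extracellular matrix genes 25 fell and 3 rose, or 10 and 5 with lane as a term. Col8a1, a network collagen gene, had 36.6, 35.6, 42.3 and 37.6 CPM in CHX + T3 libraries, against 144, 135, 142 and 142 CPM in T3 libraries.

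Astrocyte markers fell too, most of them by less than 2-fold. Of 26 tested 19 fell and 1 rose, with a median of -0.39, and their summed level was 18200 to 19220 CPM in CHX + T3 libraries, against 29000 to 29960 CPM in T3 libraries. Gfap, the intermediate filament gene of astrocytes, had 2803, 2667, 2321 and 2825 CPM in CHX + T3 libraries, against 5083, 5627, 5322 and 5305 CPM in T3 libraries. Apoe, the lipid carrier gene, had 3060, 2856, 2721 and 3252 CPM in CHX + T3 libraries, against 5728, 6695, 6077 and 5787 CPM in T3 libraries. Their log2 fold changes were -1.01 ± 0.10 and -1.03 ± 0.11 (SE), against -0.60 ± 0.09 and -0.57 ± 0.11 for CHX alone on lane 5. Glul, the glutamine synthetase gene, changed by -0.89 ± 0.04, and Slc1a3, the glutamate carrier GLAST, by -0.24 ± 0.04. Sox9, the transcription factor gene that defines the lineage, had 458, 492, 479.9 and 472 CPM in CHX + T3 libraries, against 554, 487, 487 and 511 CPM in T3 libraries. Those groups overlapped and Sox9 was not called (adjusted p = 0.124), while DESeq2 and the fit of the 8 libraries alone called it lower.

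Markers of the other cells such cultures can hold were examined as well, and those of microglia and the oligodendrocyte lineage mostly fell. The 18 microglia markers summed to 74.6 to 85.9 CPM in CHX + T3 libraries, against 147 to 159 CPM in T3 libraries, with Siglech at 0 in all of these. Of the 16 tested 13 fell and none rose, with a median of -1.08. Under CHX alone on lane 5, 8 fell with a median of -0.54. The 14 oligodendrocyte lineage markers summed to 536 to 567 CPM in CHX + T3 libraries, against 882 to 971 CPM in T3 libraries, and 8 of the 10 tested fell while 1 rose. The 17 neuron markers summed to 448 to 493 CPM in CHX + T3 libraries, against 543 to 618 CPM in T3 libraries, with 5 of 12 tested falling, Tubb3 among them, none rising and 7 not called. The 16 vascular and meningeal markers summed to 2248 to 2584 CPM in CHX + T3 libraries, against 2552 to 3105 CPM in T3 libraries, so that the sums overlapped. Of 12 tested 4 fell, near the 31.0% over all genes, 1 rose and 7 were not called, and with lane as a term 2 rose and none fell. The part of these cells in the results above was not tested.

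Genes known to respond to thyroid hormone fell more often than they rose. Of 30 thyroid hormone-responsive genes 18 fell and 5 rose with a median of -0.52, or 10 fell with lane as a term. Under CHX alone on lane 5, 11 fell and 9 rose with a median of -0.21. In CHX + T3 against T3, changes of at least 2-fold were called in 4 of the 30 (13.33%), near the 16.5% of all genes tested. The list was drawn up with earlier results of these data known. Hr, which encodes a corepressor and is a classical direct target of the T3 receptor, had 109.9, 108, 119.8 and 115 CPM in CHX + T3 libraries, against 226, 193, 204 and 197 CPM in T3 libraries. Its level was thus lower with cycloheximide by -0.86 ± 0.07 on the log2 scale (SE; adjusted p = 2.28e-11) and still far above the 15.6, 14.9, 14.97 and 17.4 CPM of the CHX libraries without T3. Klf9, a Krüppel-like factor gene and direct T3 target, had 60.5, 65.1, 65.6 and 57.9 CPM in CHX + T3 libraries, against 85.1, 72.6, 79.3 and 81.5 CPM in T3 libraries. The groups did not overlap, and the change of -0.35 ± 0.08 was called (adjusted p = 3.88e-04), but not with lane as a term (adjusted p = 0.208). Dio3, the deiodinase gene that inactivates T3, had 0.522, 0.234, 0.324 and 0.762 CPM in CHX + T3 libraries, against 2.05, 1.79, 1.89 and 1.46 CPM in T3 libraries, and fell by 1.93 on the log2 scale.

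Of the genes that handle the hormone, 7 of 20 tested fell and 5 rose, where 31.0% of all genes tested fell and 36.3% rose. Slc7a8, an amino acid carrier gene whose protein also moves T3, had 47.3, 43.2, 51.5 and 44.6 CPM in CHX + T3 libraries, against 11.95, 9.86, 11.5 and 11.6 CPM in T3 libraries. Dio2, the deiodinase gene that makes T3 in astrocytes, had 11.3, 12.5, 13.2 and 11.4 CPM in CHX + T3 libraries, against 14.4, 12.6, 13.1 and 14.6 CPM in T3 libraries, with overlap and no call (adjusted p = 0.0901), though it was called lower with RLE size factors and in the fit of the 8 libraries alone. Thrb, a T3 receptor gene, changed by -0.52 ± 0.12, and was not called with lane as a term (adjusted p = 0.0615).

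Most of these effects were also present without T3. CHX against control, a comparison that shares no library with CHX + T3 against T3, called 10862 genes (67.5%), with at least 2-fold rises in 1883 (11.7%) and falls in 931 (5.79%). The genes rising at least 2-fold in both numbered 1390, which is 82.64% of those with T3 and 73.82% of those without. The genes falling at least 2-fold in both numbered 662, which is 67.83% of those with T3 and 71.11% of those without. Of 9367 genes called in both comparisons 9337 had the same direction. Pearson's r between the log2 fold changes was 0.894 across the 16087 genes, which are not independent replicates. With CHX alone confined to lane 5, 2649 of the genes changed at least 2-fold with T3 could be tested. Of these 2614 (98.68%) had the same sign, 2395 (90.41%) were called in the same direction, and 1 was called in the opposite one.

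**Figure D4:**
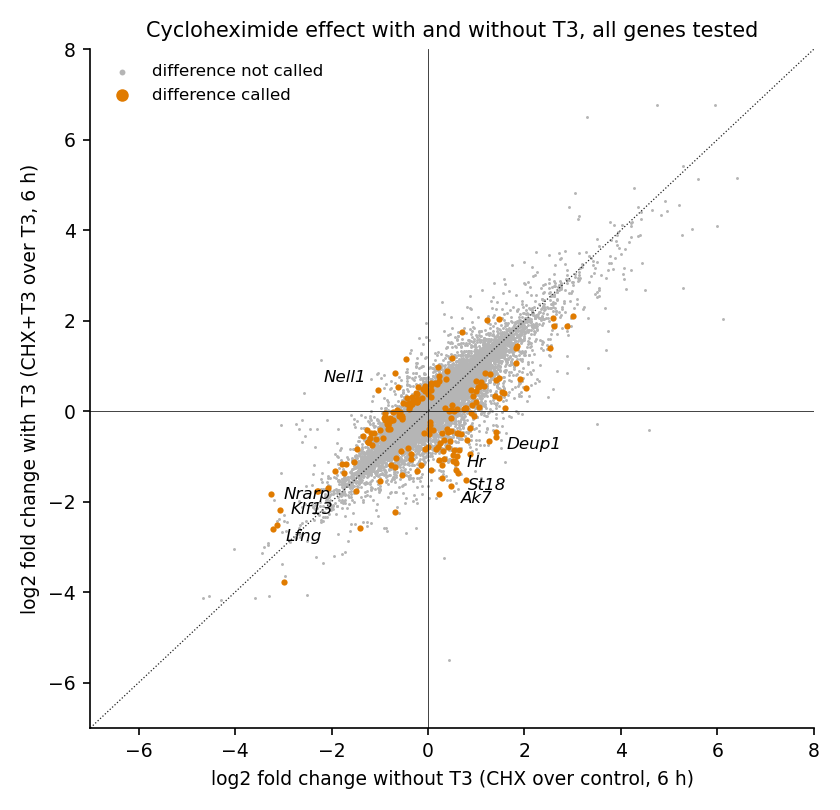
Each point is 1 of the 16087 genes tested, with the log2 fold change of CHX over control on the horizontal axis and of CHX + T3 over T3 on the vertical axis. Grey points lie along the diagonal (r = 0.894), and orange points are the 196 genes whose effects differed with and without T3.

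The effect of cycloheximide with T3 minus that without T3 was called in 196 genes (1.22%), 94 of them higher (0.584%) and 102 lower (0.634%). By its construction the same number measures how the effect of T3 differs with and without cycloheximide. The count was fragile, since leaving out single libraries gave 30 to 334 genes. The lowest count, 30, came without 6 h T3 replicate 4 and also without 6 h control replicate 2, and the highest, 334, without 6 h CHX replicate 3. Without 6 h CHX replicate 4, the CHX library on lane 6, it was 47. Hr, Nrarp, Klf13, Lfng and Ccna2 were called with each library left out in turn.

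Hr and Nrarp had differences of like size and opposite sign. Without T3 Hr had 15.6, 14.9, 14.97 and 17.4 CPM in CHX libraries, against 9.34, 10.02, 11.5 and 12.2 CPM in control libraries, so cycloheximide raised it there and lowered it under T3. The difference was -1.41 ± 0.11 on the log2 scale (SE; adjusted p = 1.36e-08), and -1.36 without 6 h CHX replicate 4. Nrarp, a feedback inhibitor of Notch signalling, had 28.1, 27.99, 29.1 and 31.1 CPM in CHX + T3 libraries, against 103, 101, 111 and 103 CPM in T3 libraries. Without T3 it had 6.996, 8.24, 6.76 and 6.75 CPM in CHX libraries, against 68.7, 65.4, 69.6 and 69.2 CPM in control libraries. It fell in both settings and further without T3, with a difference of 1.40 ± 0.09 (SE; adjusted p = 9.70e-10), or 1.38 without 6 h CHX replicate 4. Klf13, a Krüppel-like factor gene, had 53.9, 55.3, 59.3 and 50.5 CPM in CHX + T3 libraries, against 278, 225, 256 and 236 CPM in T3 libraries. Without T3 it had 27.3, 24.8, 23.9 and 24.3 CPM in CHX libraries, against 203, 214, 237 and 183 CPM in control libraries, and the difference was 0.88 ± 0.12 (SE; adjusted p = 4.62e-04). Klf9, measured the same way, had 14.7, 14.1, 14.8 and 13.6 CPM in CHX libraries, against 20.8, 22.5, 25.4 and 23.1 CPM in control libraries. Its difference of 0.33 ± 0.12 was not called (adjusted p = 0.194).

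**Figure D5:**
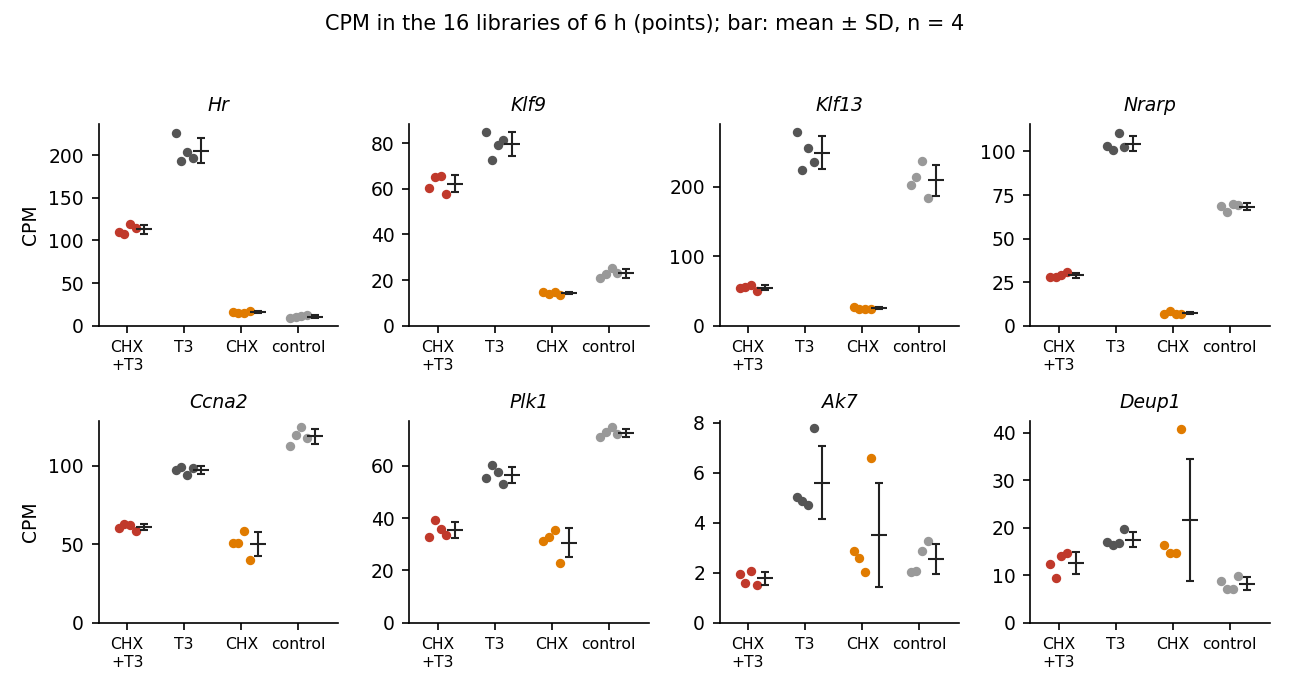
CPM of 8 genes in the 16 libraries of 6 h, in the order CHX + T3 (red), T3 (dark grey), CHX (orange) and control (light grey), with mean ± SD (n = 4). Hr and Klf9 are high in both groups with T3, Klf13 and Nrarp are low in both groups with cycloheximide, and 1 CHX library, replicate 4, lies above the other 3 for Ak7 and Deup1 and below them for Ccna2 and Plk1.

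Mitotic genes and genes of motile cilia were among the others with a called difference, and in both 1 CHX library, replicate 4 on lane 6, lay apart. It was below the other 3 CHX libraries in all 30 G2/M genes and above them in 37 of 38 cilia genes. A lane term in the fit rests on this library, so for these genes the term carries its deviation. Ccna2, the cyclin A gene, had 60.5, 62.7, 62.4 and 58.1 CPM in CHX + T3 libraries, against 96.8, 99.1, 93.8 and 98.6 CPM in T3 libraries, and without T3 50.6, 50.8, 58.5 and 40.1 CPM in CHX libraries, against 113, 119.5, 124 and 118 CPM in control libraries. With lane as a term its fall under T3 was not called (-0.26, adjusted p = 0.0852). The difference was 0.57 ± 0.11 (SE; adjusted p = 0.0165). Of 30 G2/M genes the difference was called in 14, all higher with T3, and under CHX alone 24 fell and none rose (21 and none on lane 5 alone). Without 6 h CHX replicate 4 the difference was called in 4 of the 30, and with other single libraries left out in 2 to 22. The count moved by more than 1.5 times with each library of 6 h left out other than control replicate 4 and CHX replicates 1 and 2. The difference of Plk1, a mitotic kinase gene, was 0.57 ± 0.13 (SE; adjusted p = 0.0384), and 0.45 without CHX replicate 4, where it was not called (adjusted p = 0.072). The motile cilia list, put together after the data had been seen, had 18 of 38 genes with a called difference, all lower with T3, or 4 without CHX replicate 4 and 1 to 22 with other single libraries left out. This count moved by more than 1.5 times when 1 library was left out, be it a CHX + T3 replicate, T3 replicate 1, 3 or 4, CHX replicate 4 or control replicate 1, 2 or 3. Of its 38 genes 16 fell and 4 rose in CHX + T3 against T3, while 27 rose and none fell in CHX against control. Deup1, which builds the centrioles of multiciliated cells, had 12.3, 9.49, 14.1 and 14.6 CPM in CHX + T3 libraries, against 16.97, 16.4, 16.8 and 19.8 CPM in T3 libraries. That change was not called (adjusted p = 0.13), though it was in the fit of the 8 libraries alone. It was also called with lane as a term (-1.88), a term that rests on CHX replicate 4. Without T3 Deup1 had 16.5, 14.8, 14.6 and 40.9 CPM in CHX libraries, against 8.79, 7.16, 7.10 and 9.92 CPM in control libraries, the high value being replicate 4. Its difference was -1.87 ± 0.39 (adjusted p = 0.0285), or -1.37 without that library (adjusted p = 0.0310). Ak7, the adenylate kinase gene of the axoneme, had a difference of -2.13 ± 0.48 (adjusted p = 0.0324), and -1.64 without that library, where it was not called (adjusted p = 0.0919). On lane 5 alone, CHX against control raised 18 cilia genes and lowered none.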

How the data were processed

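RNA of 23 astrocyte libraries was sequenced as single reads of 50 bases (HiSeq 2500, NEBNext Ultra kit, which does not mark strand), per the labels' protocols. Tools listed in the submitters' processing notes are HTSeq, TopHat with Bowtie, bcl2fastq, FastQC and edgeR, with the build GRCm38. Versions, annotation release and counting mode are not given in the labels. The authors deposited raw read counts per gene for each library, with whole numbers and HTSeq's summary lines, which were left out. Counts assigned to genes came to 13843040 to 22997873 per library, and counting error alone limits genes of a few counts.

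All 23 libraries in 6 groups entered 1 edgeR fit (edgeR 4.0.16, limma 3.58.1, R 4.3.3; quasi-likelihood F-test, TMM scaling, filterByExpr with a minimum count of 10), which kept 16087 genes with 17 residual degrees of freedom. P-values were adjusted over all genes by Benjamini and Hochberg. CHX + T3 was set against T3, CHX against control, and the 2 effects against each other. The fit was tested on simulated data. Alternatives were other scalings, no filter, DESeq2 1.42.0, a lane term, a test against a 1.5-fold change, fewer libraries, a replicate block and leaving out single libraries. The main fit did not pair samples by replicate number. Same-numbered CHX + T3 and T3 libraries deviated together with correlations of -0.063, 0.131, 0.008 and -0.038. Different-numbered libraries of these groups had -0.309 to 0.221. Such values cannot settle whether the samples were paired.

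Gene names came from GENCODE M21, promoters from RefSeq (GRCm38.p6). Named genes were the 15 coding and 5 other genes with the largest called change in each direction, at mean levels from 1 CPM up and where the groups did not overlap, up to 4 members per list by adjusted p, 8 genes per direction for the difference, and Hr, Klf9, Dio3, Dio2 and Thrb. The comparison, its members and all lists were chosen with earlier results of these data known. Junb, Fos, Jun, Myc, Ccn1, Ccn2, Nfkbia, Tnf, Hlf, Slc7a11, Hsph1, Tubb5, Tubb4b, Tubb2a, Tubb2b, Tuba1a, Tubg1, Tubg2, Id1, Dll4, Gfap, Apoe, Slc1a3, Sox9 and Vegfa fell outside that rule and were named after their values were seen. A few genes that met the rule are not reported here.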

Additional observations from a re-analysis of the deposited data

Results flagged for a closer look

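The effect of cycloheximide differed with and without T3, by the interaction term of the edgeR fit, in all genes of this paragraph, and the value is the log2 difference, with T3 minus without T3. It was -1.408 for Hr, 1.404 for Nrarp, 0.8759 for Klf13, 0.6034 for Lfng, 0.5738 for the cyclin gene Ccna2 and 0.5705 for the mitotic kinase gene Plk1. Of the steepest positive differences, D630039A03Rik had 1.535, the secreted protein gene Nell1 1.507, the meiotic cohesin gene Rec8 1.032, Wscd2 0.8483 and Xkr5 0.8420. Of the steepest negative ones, Cfap299 had -2.308, Ak7 -2.128, Dmkn -2.053, St18 -1.989, Wdr63 -1.979, Cdc20b -1.933, Cfap161 -1.888 and Deup1 -1.871. Without 6 h CHX replicate 4, the differences of Hr, Nrarp, Klf13, Lfng, Ccna2 and Deup1 were called and those of the other genes named here were not.

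In 21 of 306 groups of 4 libraries examined, 1 library lay apart from the other 3 by Dixon's criterion, which chance meets in about 1 of 20 groups. Among CHX + T3 libraries these were Hist1h1b (8.972 CPM in replicate 3), Gpr17 (0.9728, replicate 3), Ankrd37 (0.4864, replicate 3), Ak3l2-ps (0.5856, replicate 2), Ptgs2 (78.53, replicate 3), Xbp1 (7.378, replicate 1) and Cdk6 (60.69 CPM, replicate 3). Among T3 libraries they were Nkx1-2 (0.1084 CPM in replicate 2, the others at 0), Skor1 (0.3544, replicate 3), Fos (38.66, replicate 1), Ppp1r15a (42.63, replicate 4), Ciart (3.426, replicate 3), Glul (1551, replicate 3), Nell1 (1.949, replicate 3), Ak7 (7.774, replicate 4) and Deup1 (19.83 CPM, replicate 4). Among CHX libraries without T3 they were Nrarp (8.240 CPM, replicate 2), Cdc20b (14.57, replicate 4) and Deup1 (40.90 CPM, replicate 4). Among control libraries they were St18 (1.253 CPM, replicate 2) and Wdr63 (2.651 CPM, replicate 4).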

How the results depend on the processing

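The call count of CHX + T3 against T3 was 10842 with RLE factors, 10762 with library size alone, 10826 without a filter, 10813 with DESeq2, 11009 with the 8 libraries alone and 7589 with a lane term, and 10320 to 10445 with single libraries left out. Only the CHX group without T3 lay on both lanes used at 6 h, so the lane term rests on its replicate 4. A test against a 1.5-fold change called 3747 genes. A replicate block called 10954 genes in CHX + T3 against T3, and 683 in the difference with and without T3. That difference was called in 295 genes without a filter, 966 with a lane term, 514 with DESeq2 and 499 with the 16 libraries of 6 h alone (chosen after seeing the data), and in 30 to 334 with single libraries left out; the cause was not tested. Among single genes, none of them called in these settings, the sign turned for Xkr5 (0.01299 with library size alone, 0.3443 with a lane term, -0.1097 to 0.02440 with single libraries left out, positive without 6 h T3 replicate 4), Dio2 (0.05692 with a lane term) and Wscd2 (0.1003 with a lane term); the cause was not tested. Wdr63 and Cdc20b, not called in CHX + T3 against T3, were called lower in the fit of the 8 libraries alone, as were Sox9, Dio2 and Deup1. Depth limits genes of a few counts, such as Nkx1-2, Osm and Zfp773.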

Other observations

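Trophic and growth factor genes, which astrocytes use to support neurons and vessels, moved in both directions. Of 24 tested 10 rose and 5 fell. Nrg1, a ligand of ErbB receptors, had 178, 169.7, 207 and 184 CPM in CHX + T3 libraries, against 57.2, 48.1, 53.2 and 53.1 CPM in T3 libraries. Bdnf, a neurotrophin gene, had 78.7, 79.3, 85.3 and 80.8 CPM in CHX + T3 libraries, against 25.1, 30.03, 27.1 and 26.9 CPM in T3 libraries, and Igf1, an insulin-like growth factor gene, rose by 1.27 ± 0.08 (log2 ± SE). Vegfa, the vascular growth factor gene, went the other way, with 61.4, 60.7, 65.2 and 59.97 CPM in CHX + T3 libraries, against 139.7, 113, 141 and 186 CPM in T3 libraries. Genes of axon guidance did not lean one way, with 13 of 38 rising and 16 falling, against 36.3% and 31.0% of all genes tested.

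Of 29 genes of reactive astrocytes 17 fell and 8 rose, while under CHX alone on lane 5, 9 fell and 8 rose. Of 22 interferon response genes tested 11 rose and 6 fell. Of 30 p53 targets 12 rose and 8 fell, and of 14 regulators of G protein signalling 5 rose and 7 fell. Of 11 genes of polyamine metabolism and antizymes 2 rose and 6 fell. Of 19 YAP and SRF targets 6 rose and 8 fell, and with library size alone or a lane term more of them rose than fell. Of 13 genes tied to the decay of short-lived mRNAs 7 rose and 5 fell, and of 12 partners and inhibitors of D cyclins 7 rose and 2 fell. These counts stand beside 36.3% rising and 31.0% falling over all genes tested.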
